A study of Homo sapiens with 5 samples.

Results

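The TGF-beta, BMP and activin signalling genes are the 51 genes of this pathway whose symbols were looked up by exact name among the 43714 gene rows of the count files: 14 ligands, 12 receptors and co-receptors, 8 SMADs, 4 intracellular regulators, 5 antagonists, 4 latent TGF-beta binding proteins and 4 further target genes. All 51 had a row, and 48 had enough counts to be tested. They were measured by poly-A RNA sequencing in Rh41, an established human cell line of alveolar rhabdomyosarcoma, a tumour of children and adolescents that expresses skeletal muscle genes; the labels give its type as ARMS and FP-RMS. Cells received an siRNA specific for H3F3A (3 libraries, replicates 1, 2 and 3) or a scrambled siRNA (2 libraries, replicates 1 and 3), delivered with Lipofectamine RNAiMAX, and RNA was taken after 48 hours. H3F3A is one of a pair of genes that encode the histone variant H3.3, and the series asks what H3.3 does in metastasis of this tumour. All libraries come from 1 cell line, and the labels do not say whether replicates were separate cultures, so p-values cover only how these 5 libraries vary among themselves, and that variation may be technical.

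Ligands of this superfamily are secreted dimers that bring together type II and type I receptor kinases at the cell surface. The type I receptor then phosphorylates receptor SMADs, SMAD2 and SMAD3 for TGF-beta and activins and SMAD1, SMAD5 and SMAD9 for BMPs, which enter the nucleus with SMAD4 and change the transcription of targets such as the ID genes. Secreted antagonists trap ligands, latent binding proteins hold TGF-beta in the matrix, and SMAD6, SMAD7, SKI and SKIL dampen the signal inside the cell. In skeletal muscle, myostatin and activins are known to restrain muscle growth.

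Levels are given as CPM, the counts of a gene scaled to the library total with TMM factors. H3F3A, named H3-3A in the gene rows, stood at 9.47 ± 0.970 CPM (SD, n = 3) in H3F3A siRNA libraries and at 281 ± 17.7 CPM (SD, n = 2) in scrambled libraries, 29.7-fold lower in cells given its siRNA (adjusted p = 9.04e-21 by the quasi-likelihood test of edgeR). H3F3B, the other H3.3 gene, named H3-3B there, stood at 791 to 847 CPM in H3F3A siRNA and 803 to 839 CPM in scrambled libraries (adjusted p = 0.988). Assigned counts ran from 28493573 to 30705963 per library. Scrambled replicate 1 stood apart: its log2 CPM, centred on the 5-library mean of each gene, had a slope of 0.144 per 10 percentage points of gene GC content, against slopes of -0.0589, -0.0386 and -0.0401 in the H3F3A siRNA libraries and -0.00598 in scrambled replicate 3. Counts of called genes are therefore given also after removal of each library's GC trend (GC correction) and without scrambled replicate 1. For single genes these values are given in the text for some and not for others. The plot of log2 fold changes by role shows the GC-corrected value of each of the 48 tested members. Of 10 rhabdomyosarcoma markers 9 were detected well enough to be tested, MYOD1 at 1095 CPM in H3F3A siRNA and 1340 CPM in scrambled libraries and DES at 675 and 835 CPM, and MYF5 was near 0. The summed level of that list was 4507 to 4621 CPM in H3F3A siRNA and 5207 to 6194 CPM in scrambled libraries, without GC correction. FGFR4 and CHRND were called lower and TFAP2B higher, at adjusted p under 0.05 by edgeR. FGFR4 and TFAP2B kept their calls with GC correction (adjusted p = 0.0102 and 0.000156), and CHRND did not (adjusted p = 0.085). GC correction moved the log2 fold change from -0.29 to -0.05 for MYOD1 and from -0.31 to -0.11 for DES, neither of them called. Markers of epithelium, endothelium and immune cells were low, and few were absent: of 5 epithelial markers 1, of 5 endothelial markers 1 and of 5 immune markers 2 stayed under 0.1 CPM in all libraries. Their summed levels were 5.34 to 6.16 CPM in H3F3A siRNA and 5.99 to 6.79 CPM in scrambled libraries for the epithelial list, 5.20 to 5.43 and 5.11 to 6.03 CPM for the endothelial list, and 4.17 to 4.76 and 4.04 to 4.59 CPM for the immune list. The highest markers of these lists were KRT18 (4.47 and 5.08 CPM), TIE1 (3.00 and 2.89 CPM) and CD68 (3.81 and 3.60 CPM), and none of these lists had a called gene. A fibroblast list was higher, at a summed 77.5 to 85.3 CPM in H3F3A siRNA and 94.4 to 103 CPM in scrambled libraries. It had called genes, which are given with the TGF-beta targets below.

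Most members were not called as changed after H3F3A siRNA, which does not show that they were unchanged. Of 48 tested members 3 fell, the ligands INHBE and GDF15 and the SMAD corepressor SKI, and 1 rose, the muscle ligand MSTN (edgeR quasi-likelihood test, Benjamini-Hochberg adjusted p under 0.05 over all 15859 genes tested). Over all genes tested, 2.69% were called lower and 0.504% higher by the same rule, and no test was made of whether the members differ from that background. In bulk RNA, fewer cells that express a gene and less of its RNA per cell cannot be told apart. The median log2 fold change was -0.04 over the tested members and 0.01 over all genes, and the median size of change was 0.14 and 0.13 on the log2 scale. The libraries of the groups did not overlap for 15 members that were lower and 6 that were higher, of 48, against 17.1% of all genes lower and 16% higher. The counts moved with single libraries, as did those over all genes. With H3F3A siRNA replicate 1 left out, 1 member was called lower and 0 higher, against 0.0575% and 0.0383% of all genes tested in that fit. With H3F3A siRNA replicate 2 left out it was 1 and 1 (0.977% and 0.153% of all genes), and with H3F3A siRNA replicate 3 left out 2 and 1 (1.62% and 0.351%). Omitting scrambled replicate 1 gave 1 and 1 (0.501% and 0.122%), and omitting scrambled replicate 3 gave 9 and 5 (10.6% and 4.54%). With GC correction 1 of 48 members fell, INHBE, and 2 rose, MSTN and LTBP4, against 1.32% of all genes called lower and 0.492% higher.

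**Figure D1:**
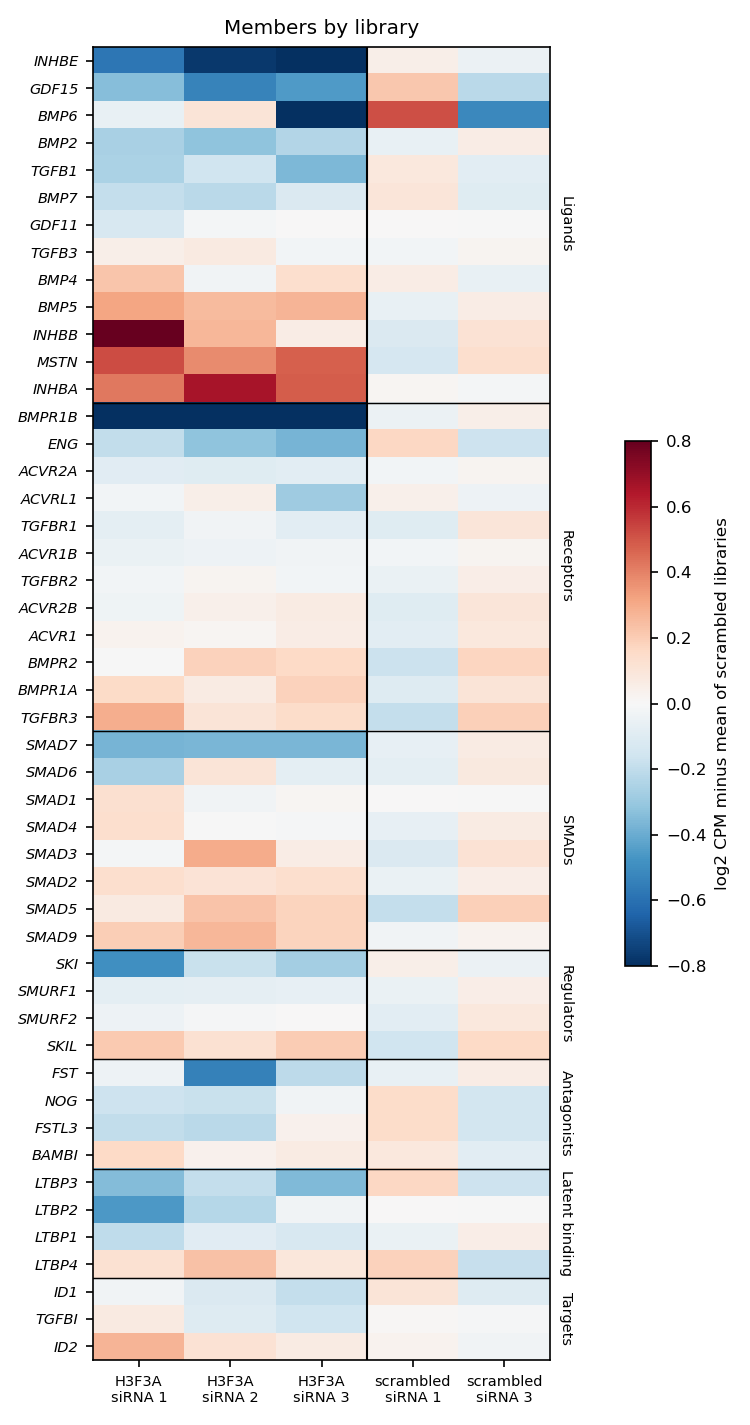
Level of each of the 48 tested members in each library (columns, H3F3A siRNA left of scrambled siRNA), as log2 CPM minus the mean of the 2 scrambled libraries, in role groups. Colour is cut at the ends of the scale, which the lowest values, those of BMPR1B among them, pass; INHBE is blue and MSTN red in all 3 H3F3A siRNA libraries.

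INHBE, which encodes the activin E subunit, a stress-responsive secreted ligand best known from liver, was the member with the firmest change. Its level was 8.64, 7.55 and 7.15 CPM in the H3F3A siRNA libraries, against 13.3 and 12.5 CPM in the scrambled libraries, from 258, 219 and 221 counts and 389 and 371 counts. All 3 H3F3A siRNA libraries lay below both scrambled libraries, with a gap larger than the spread within either group. INHBE fell 1.66-fold (log2 fold change -0.73, SE 0.11, edgeR adjusted p = 0.00133). It was called in all 14 alternatives run, with log2 fold changes from -0.81 to -0.66, and GC correction left it at -0.68 (adjusted p = 0.00182). The fall of INHBE was already known when the list was drawn up.

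MSTN, myostatin, the activin-like ligand made mainly by skeletal muscle, was higher. It stood at 148, 134 and 144 CPM in the H3F3A siRNA libraries, against 94.1 and 113 CPM in the scrambled libraries. The lowest H3F3A siRNA library lay above the higher scrambled library, replicate 3. MSTN rose 1.37-fold, by 0.45 on the log2 scale with an SE of 0.08 (edgeR adjusted p = 0.00443). The log2 fold change was 0.32 without scrambled replicate 1 (adjusted p = 0.0485) and 0.34 with GC correction (adjusted p = 0.00408). Without H3F3A siRNA replicate 1 it was 0.43 and not called (adjusted p = 0.127), and GC correction without scrambled replicate 1 gave 0.29 (adjusted p = 0.102).

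GDF15, a divergent member of the superfamily that is released by stressed cells and signals through the receptor GFRAL, was lower. It stood at 62.1, 54.3 and 57.5 CPM in the H3F3A siRNA libraries, against 91.2 and 67.8 CPM in the scrambled libraries. The groups did not overlap, but the scrambled libraries lay further from each other than replicate 3 of them lay from the nearest H3F3A siRNA library. GDF15 fell 1.37-fold (edgeR adjusted p = 0.016), a log2 fold change of -0.45 with an SE of 0.10. Scrambled replicate 1, the library with the steepest GC trend, moved with this result: without it the log2 fold change was -0.23. After GC correction of all libraries it was -0.25 and not called (edgeR adjusted p = 0.0913). Leaving out H3F3A siRNA replicate 1 (adjusted p = 0.128) or replicate 2 (adjusted p = 0.0798) also ended the call, and leaving out scrambled replicate 3 moved the log2 fold change to -0.65. The part of scrambled replicate 1 in the fall was not tested further.

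**Figure D2:**
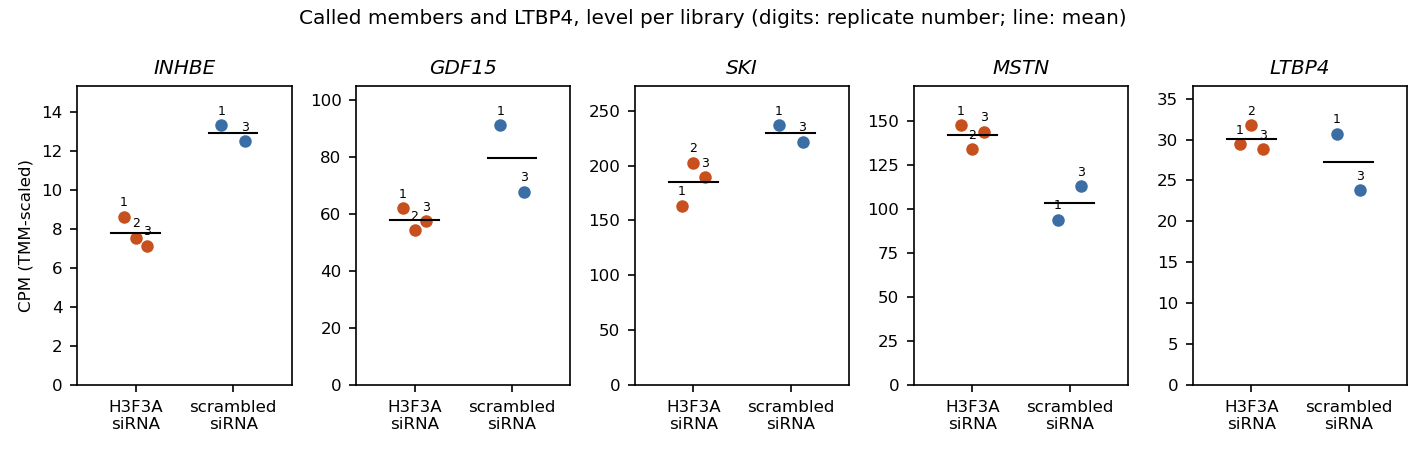
TMM-scaled CPM (vertical axes from 0) of the 4 called members and of LTBP4, which was called with GC correction, in each H3F3A siRNA (orange, n = 3) and scrambled siRNA library (blue, n = 2); digits are replicate numbers and lines group means. INHBE, GDF15 and SKI lie lower and MSTN higher in every H3F3A siRNA library, while scrambled replicate 1 of LTBP4 lies among the H3F3A siRNA libraries.

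The start regions of MSTN and GDF15 are shown because they are the pair of called ligands with an entry in the RefSeq promoter table (GRCh38.p14), which matched 45 of the 51 members; INHBE and SKI are not among them. Each run covers 250 bases before to 50 bases after the start, 5′ to 3′, with E-boxes (CANNTG, the site of MYOD1 and its relatives) and TATA boxes (TATAAA) in capitals. The MSTN region is chr2:190062680-190062979, minus strand, and the GDF15 region is chr19:18385908-18386207, plus strand.
MSTN: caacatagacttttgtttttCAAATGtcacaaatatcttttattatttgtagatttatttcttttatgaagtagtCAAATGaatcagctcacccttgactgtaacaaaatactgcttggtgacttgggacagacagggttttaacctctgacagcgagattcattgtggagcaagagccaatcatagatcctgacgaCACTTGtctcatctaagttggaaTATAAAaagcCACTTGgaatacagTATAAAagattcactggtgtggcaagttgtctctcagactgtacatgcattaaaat
GDF15: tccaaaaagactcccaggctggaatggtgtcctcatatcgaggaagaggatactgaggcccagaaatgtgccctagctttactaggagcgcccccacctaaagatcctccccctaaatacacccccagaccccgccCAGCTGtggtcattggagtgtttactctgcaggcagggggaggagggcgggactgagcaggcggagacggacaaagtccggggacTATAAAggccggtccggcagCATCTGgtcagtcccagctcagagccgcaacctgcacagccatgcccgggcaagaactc
The MSTN region holds 4 E-boxes and 2 TATA boxes and the GDF15 region 2 and 1. Counted on both strands, at least 1 E-box occurs in 68.9% and at least 1 TATA box in 11.95% of 27305 RefSeq promoters of the same length, and the capitals do not overlap each other. The SMAD box AGAC has 5 matches in the MSTN region and 3 in the GDF15 region, and occurs in 84.1% of promoters. The regions differ in base composition, with 36% G and C for MSTN and 59.3% for GDF15, as do their transcripts, at 33.8% and 62.9%. Matches of these letters are a description and show no binding.

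The other ligands did not pass the test. TGFB1, the main TGF-beta isoform, stood at 124, 133 and 115 CPM in the H3F3A siRNA libraries, against 157 and 140 CPM in the scrambled libraries. Its groups did not overlap, and its log2 fold change was -0.26 (edgeR adjusted p = 0.0856), -0.05 with GC correction (adjusted p = 0.799) and -0.34 without scrambled replicate 3, where alone it was called (adjusted p = 0.00383). BMP5, a bone morphogenetic protein, stood at 44.9, 42.9 and 43.5 CPM, against 34.6 and 37.4 CPM in scrambled libraries (log2 fold change 0.28, adjusted p = 0.0577). It was called in 4 of 14 alternatives, by DESeq2 among them (adjusted p = 0.0496), and not with GC correction (adjusted p = 0.199).

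BMP2, BMP7 and INHBA also had groups that did not overlap; they are named because their unadjusted p was under 0.05, a choice made after their values were seen. BMP2 stood at 17.8, 17.1 and 18.1 CPM in the H3F3A siRNA libraries, against 20.5 and 22.2 CPM in the scrambled libraries (edgeR adjusted p = 0.106). BMP7 averaged 45.7 ± 1.64 CPM (SD, n = 3) in H3F3A siRNA and 51.6 ± 4.88 CPM (SD, n = 2) in scrambled libraries (adjusted p = 0.272). INHBA, the activin A subunit, had 49, 56 and 53 counts, against 36 and 36 counts in scrambled libraries (log2 fold change 0.52, SE 0.23, adjusted p = 0.248), so the activin subunit genes INHBA and INHBE had fold changes of opposite sign and only INHBE was called; the difference between them was not tested. GDF11, the closest relative of MSTN, stood at 74.6, 80.6 and 81.8 CPM, against 81.7 and 81.6 CPM in scrambled libraries (log2 fold change -0.05, adjusted p = 0.812), and its groups overlapped. BMP4 averaged 62.3 ± 5.49 CPM in H3F3A siRNA and 57.6 ± 3.37 CPM in scrambled libraries (adjusted p = 0.534) and TGFB3 3.05 ± 0.0989 and 2.99 ± 0.0582 CPM (adjusted p = 0.954), and both overlapped. INHBB, the activin B subunit, and BMP6 were under 1 CPM in all libraries and not called. INHA, the inhibin alpha subunit, had 4 to 17 counts per library and was not tested.

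No receptor was called in the uncorrected fit of all libraries or with GC correction alone. ENG, endoglin, a co-receptor for TGF-beta and BMP ligands, stood at 104, 95.1 and 91.7 CPM in the H3F3A siRNA libraries, against 133 and 106 CPM in the scrambled libraries (log2 fold change -0.30, edgeR adjusted p = 0.0653). Scrambled replicate 3 lay just above the highest H3F3A siRNA library, and GC correction gave -0.10 on the log2 scale (adjusted p = 0.577). TGFBR1, the type I receptor of TGF-beta, stood at 188, 194 and 187 CPM, against 186 and 212 CPM in scrambled libraries (adjusted p = 0.714). ACVR1B, the type I receptor of activins and myostatin, stood at 96.2, 97.0 and 98.1 CPM, against 98.6 and 101 CPM in scrambled libraries (log2 fold change -0.04, 95% interval -0.19 to 0.11, adjusted p = 0.826). Without GC correction, the 10 receptors besides ENG and BMPR1B had log2 fold changes from -0.09 to 0.17, with 95% intervals that together run from -0.36 to 0.43. They include TGFBR2, ACVR2A, ACVR2B and BMPR2, the type II receptors. TGFBR2 averaged 53.9 ± 0.918 CPM in H3F3A siRNA and 54.3 ± 2.87 CPM in scrambled libraries (adjusted p = 0.965). GC correction gave -0.16 for TGFBR1 (95% interval -0.27 to -0.05, edgeR adjusted p = 0.129) and -0.19 for ACVR2A (-0.32 to -0.06, adjusted p = 0.128). Both were called lower with GC correction and a replicate block (edgeR adjusted p = 0.00152 and 0.0296).

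BMPR1B, a type I receptor of BMPs, was close to the limit of detection. It had 4, 4 and 4 counts in the H3F3A siRNA libraries, against 11 and 12 counts in the scrambled libraries, and its log2 fold change of -1.52 (SE 0.53, 95% interval -2.61 to -0.42) was not called (edgeR adjusted p = 0.123). It is named for its unadjusted p, after its values were seen. Its groups did not overlap, and it was called in 0 of 14 alternatives, for one of which, DESeq2, no adjusted p was given; all 14 kept its direction.

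The SMADs, which carry the signal of all these receptors, did not pass the test either. SMAD5 stood at 99.2, 111 and 107 CPM in the H3F3A siRNA libraries, against 82.8 and 107 CPM in the scrambled libraries (edgeR adjusted p = 0.441), so scrambled replicate 1 was low and replicate 3 lay within the H3F3A siRNA range. SMAD2 stood at 74.6, 73.4 and 74.6 CPM, against 65.5 and 70.5 CPM (log2 fold change 0.13, adjusted p = 0.427). SMAD4, the shared partner of the receptor SMADs, stood at 61.9, 56.2 and 56.1 CPM, against 53.8 and 59.1 CPM (adjusted p = 0.849), and its groups overlapped. The 6 receptor and common SMADs had log2 fold changes from 0.04 to 0.21, with 95% intervals that together run from -0.13 to 0.38, but SMAD1 and SMAD4 were at -0.06 and -0.03 with GC correction. SMAD9 had the highest fold change of them, at 45.7, 47.9 and 45.2 CPM, against 39.2 and 40.7 CPM in scrambled libraries (adjusted p = 0.159). Of the inhibitory SMADs, SMAD7, an early target and feedback inhibitor of TGF-beta, had 127, 124 and 132 counts, against 153 and 171 counts in scrambled libraries (log2 fold change -0.37, adjusted p = 0.159), without overlap, and SMAD6 averaged 13.1 ± 1.63 CPM in H3F3A siRNA and 13.8 ± 1.03 CPM in scrambled libraries (adjusted p = 0.802).

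Among the intracellular regulators SKI fell and the other members were not called. SKI, a corepressor that binds SMAD complexes and blocks their targets, stood at 163, 203 and 190 CPM in the H3F3A siRNA libraries, against 237 and 222 CPM in the scrambled libraries. All 3 H3F3A siRNA libraries lay below both scrambled libraries, and replicate 1 was the lowest. SKI fell 1.24-fold (log2 fold change -0.31, SE 0.08, edgeR adjusted p = 0.0458), just inside the threshold. It was called in 6 of 14 alternatives. GC correction gave -0.17 on the log2 scale (adjusted p = 0.316). Its log2 fold change was -0.26 without scrambled replicate 1 (adjusted p = 0.338) and -0.22 without H3F3A siRNA replicate 1 (adjusted p = 0.281), and the call was lost too without H3F3A siRNA replicate 2 (adjusted p = 0.0602) and without H3F3A siRNA replicate 3 (adjusted p = 0.079). SKIL, the paralogue of SKI, stood at 74.3, 70.1 and 74.3 CPM, against 57.6 and 72.0 CPM in scrambled libraries (log2 fold change 0.17, adjusted p = 0.337), with overlap. SMURF1, a ubiquitin ligase that removes SMADs and receptors, stood at 57.8, 57.9 and 58.2 CPM, against 58.7 and 63.2 CPM in scrambled libraries (adjusted p = 0.684), and its relative SMURF2 averaged 41.2 ± 0.616 and 41.7 ± 3.56 CPM (adjusted p = 0.946).

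**Figure D3:**
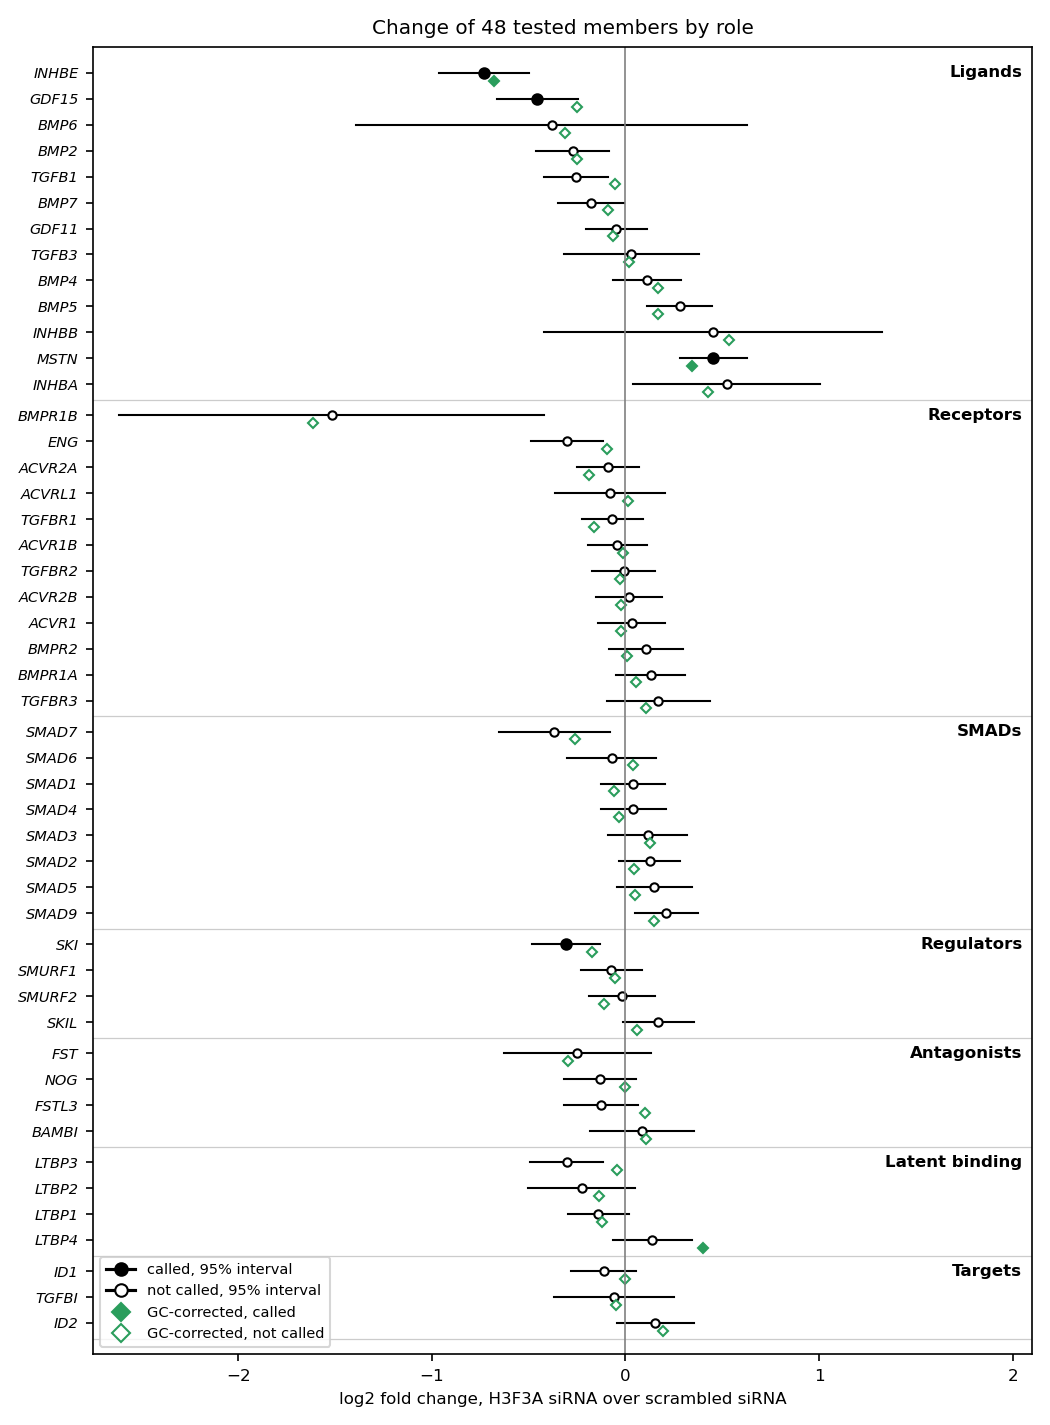
Log2 fold change (H3F3A siRNA over scrambled siRNA) of the 48 tested members by role, with 95% intervals (black, filled where called) and the GC-corrected value (green diamonds, filled where called). INHBE and MSTN are filled in both colours, GDF15 and SKI in black alone and LTBP4 in green alone.

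No extracellular antagonist was called. FSTL3, a follistatin-like trap for activins and myostatin, stood at 95.2, 93.9 and 112 CPM in the H3F3A siRNA libraries, against 121 and 98.4 CPM in the scrambled libraries (edgeR adjusted p = 0.518). Its log2 fold change was -0.13, and 0.10 with GC correction. NOG, noggin, a trap for BMPs, stood at 41.6, 41.3 and 45.8 CPM, against 51.7 and 42.3 CPM in scrambled libraries (adjusted p = 0.488), and the log2 fold change was -0.13, or 0.00 with GC correction. BAMBI, a pseudoreceptor without a kinase domain, stood at 6.47, 5.93 and 6.05 CPM, against 6.14 and 5.46 CPM (adjusted p = 0.799). FST, follistatin, averaged 2.61 ± 0.444 CPM in H3F3A siRNA and 3.11 ± 0.177 CPM in scrambled libraries (adjusted p = 0.527). GREM1, gremlin, had 1 count in all libraries together.

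None of the latent binding proteins, which tether latent TGF-beta to the matrix, was called in the uncorrected fit of all libraries. LTBP4 stood at 29.4, 31.8 and 28.8 CPM in the H3F3A siRNA libraries, against 30.7 and 23.8 CPM in the scrambled libraries (log2 fold change 0.14, edgeR adjusted p = 0.508). Scrambled replicate 1 lay within the H3F3A siRNA range and replicate 3 below it. Its transcript is rich in G and C, at 66.7%. GC correction gave 0.40 on the log2 scale (adjusted p = 0.00521), and 0.44 with scrambled replicate 1 omitted as well (adjusted p = 0.0295). Without scrambled replicate 3 and without correction it was -0.04 (adjusted p = 0.848). LTBP3 stood at 56.8, 63.4 and 56.7 CPM, against 81.2 and 64.3 CPM in scrambled libraries (log2 fold change -0.30, adjusted p = 0.0691), and at 67.8% G and C its log2 fold change was -0.05 with GC correction (adjusted p = 0.822). LTBP3 was called in 3 of 14 alternatives, none of them with GC correction. LTBP1 stood at 84.3, 90.9 and 88.8 CPM, against 93.4 and 101 CPM in scrambled libraries (log2 fold change -0.14, adjusted p = 0.367), and LTBP2 averaged 6.34 ± 0.943 and 7.42 ± 0.0221 CPM (adjusted p = 0.415).

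The target genes of the list did not pass the test. ID1, an inhibitor of bHLH factors such as MYOD1 and a direct BMP target, stood at 73.5, 69.3 and 65.6 CPM in the H3F3A siRNA libraries, against 80.5 and 69.8 CPM in the scrambled libraries (log2 fold change -0.11, edgeR adjusted p = 0.518), with overlap. ID2 stood at 21.0, 18.8 and 18.2 CPM, against 17.7 and 17.1 CPM (log2 fold change 0.15, adjusted p = 0.447), without overlap. TGFBI, a matrix protein named for its induction by TGF-beta, stood at 4.49, 3.96 and 3.82 CPM, against 4.29 and 4.24 CPM (adjusted p = 0.879). With GC correction the log2 fold changes were -0.0013 for ID1, 0.19 for ID2 and -0.05 for TGFBI, none of them called. ID3 had 1 count in all libraries together. ID3, GREM1 and SMURF1 have 1, 3 and 1 numbered copies among the gene rows, all at 0. Reads that map to several copies are not assigned, so the levels of these genes are uncertain. SMURF1 still had 1681 to 1877 counts per library. For scale, 3 counts in the shallowest library would be 0.105 CPM.

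**Figure D4:**
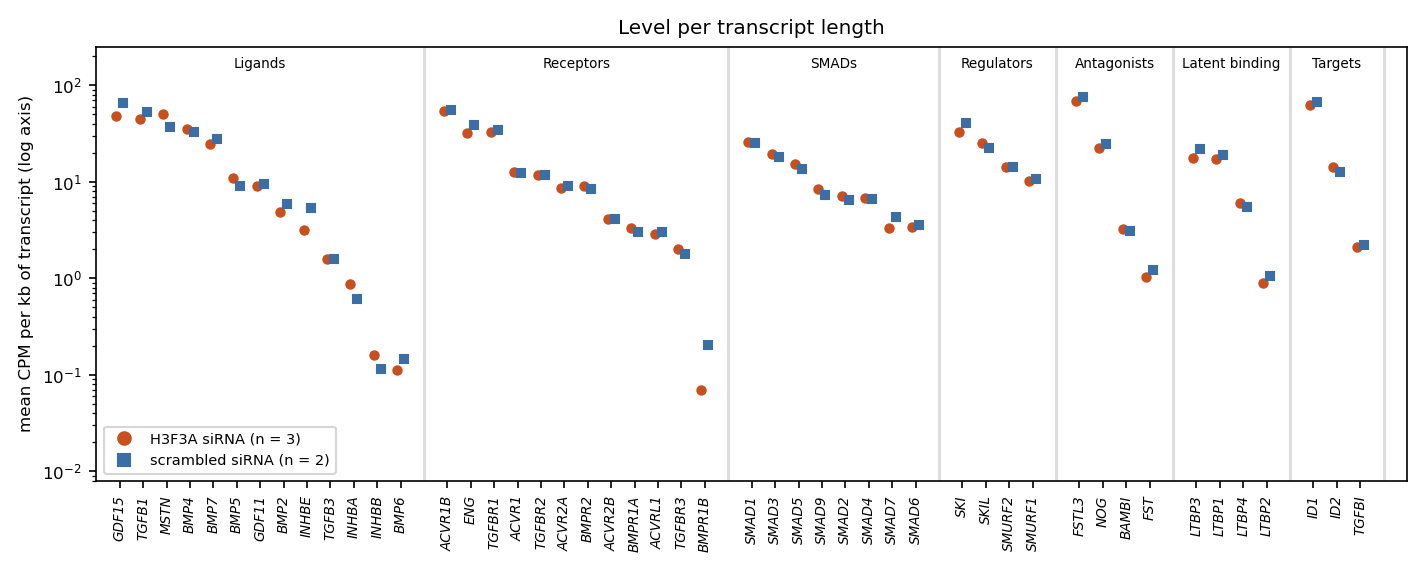
Mean CPM per kilobase of transcript (log axis) of the tested members by role, in H3F3A siRNA (orange circles, n = 3) and scrambled siRNA libraries (blue squares, n = 2). FSTL3, ID1, GDF15 and ACVR1B lie at the top and BMPR1B, BMP6 and INHBB at the bottom, and the shift between groups is small beside the range between genes.

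Per kilobase of transcript, the ligands spanned a wide range of levels. MSTN stood at 50.3 CPM per kilobase in H3F3A siRNA and 36.7 in scrambled libraries, GDF15 at 48.3 and 66.2, TGFB1 at 44.8 and 53.5 and BMP4 at 35.7 and 33.0. By these means GDF15 was the highest ligand in scrambled libraries, followed by TGFB1, and MSTN the highest in H3F3A siRNA libraries, followed by GDF15. This order was not tested. The scrambled libraries of GDF15 lay apart, at 91.2 CPM in replicate 1 and 67.8 CPM in replicate 3. INHBE, the ligand with the firmest change, was at 3.20 and 5.32 CPM per kilobase, and INHBA at 0.880 and 0.611. Among receptors the highest were ACVR1B, at 54.2 and 55.8 CPM per kilobase, ENG at 31.8 and 39.2 and TGFBR1 at 32.6 and 34.1, and the lowest was BMPR1B at 0.0696 and 0.203. These lengths are medians over GENCODE 29 transcripts, not those the submitters counted on, and another choice of transcript moves the order.

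The changes of the members ran with base composition. Over the 48 tested members, the rank correlation of the log2 fold change with the GC content of the longest transcript was -0.55, and it was -0.14 with GC correction. Over 14347 genes with a GC value it was -0.52 and -0.02. The points share the same 5 libraries, so this is a description. The falling members SKI (60.0% GC) and GDF15 (62.9%) and the uncalled LTBP3, ENG and TGFB1 (63.3% to 67.8%) lie at the high end, as do FSTL3 (64.4%, log2 fold change -0.13) and LTBP4 (66.7%, 0.14, against the trend), MSTN (33.8%) lies at the low end, and INHBE (53.9%) lies nearer the members' median of 50.8%.

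**Figure D5:**
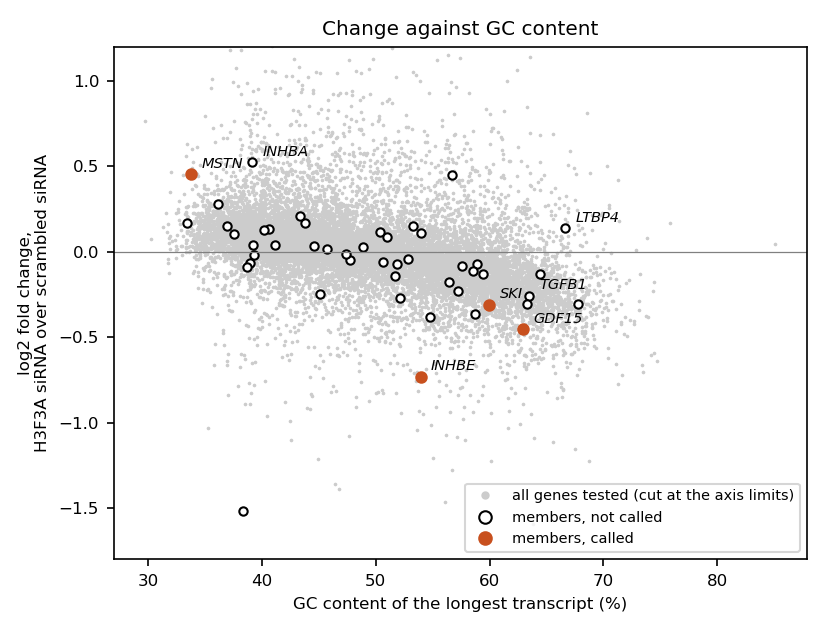
Log2 fold change (H3F3A siRNA over scrambled siRNA) against GC content of the longest transcript in percent. Grey points are the 14347 tested genes with a GC value, cut at the axis limits, and circles are the members, orange where called. The members and all genes with a GC value both trend downward, with rank correlations of -0.55 and -0.52, and INHBE lies at 53.9% GC and -0.73.

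Wider lists of the pathway held 111 further genes, of which 80 were tested. Of these 5 fell and 0 rose by edgeR, against 2.69% and 0.504% of all genes. An unadjusted p under 0.05 was found for 19 of these 80, against 2672 of all 15859 genes tested. DESeq2 called 4 lower and 0 higher, against 4.14% and 0.571% of the genes to which it gave an adjusted p. With GC correction 5 fell and 0 rose, against 1.32% and 0.492% of all genes. The lower calls numbered 0, 1 and 2 with H3F3A siRNA replicate 1, 2 or 3 left out (0.0575%, 0.977% and 1.62% of all genes), 3 with scrambled replicate 1 left out (0.501%) and 11 with scrambled replicate 3 left out (10.6%). Of these 5 fits, only the last had higher calls, 3 of them (4.54%). RGMA, a BMP co-receptor also known as an axon guidance molecule, stood at 318, 327 and 304 CPM in the H3F3A siRNA libraries, against 483 and 398 CPM in the scrambled libraries. RGMA fell 1.39-fold (edgeR adjusted p = 0.00277), also with GC correction (log2 fold change -0.39, adjusted p = 0.00182), and was not called without H3F3A siRNA replicate 1 (adjusted p = 0.084) or with GC correction and no scrambled replicate 1 (adjusted p = 0.0556). No gene was called among 5 tested further antagonists, 26 tested intracellular regulators and 14 tested BMP targets outside the member list in the uncorrected fit. With GC correction 2 of the intracellular regulators were lower, the deubiquitinase USP4 (log2 fold change -0.29, edgeR adjusted p = 0.0366) and the phosphatase PPM1A (-0.24, adjusted p = 0.0429). Without correction they were at -0.28 and -0.13 (edgeR adjusted p = 0.0699 and 0.44). Each was called in 2 of 14 alternatives, GC correction among them.

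The other falls were in a list of TGF-beta targets, chosen with earlier results of these data known. Of its 23 tested genes outside the members 4 were called lower, against 2.69% of all genes. With GC correction 2 were called lower, against 1.32%. Without it, the median log2 fold change of these genes was -0.08, against 0.01 over all genes. No test was made of whether the list differs from that background. THBS1, thrombospondin 1, an activator of latent TGF-beta, stood at 62.9, 71.0 and 66.2 CPM in H3F3A siRNA libraries, against 78.2 and 90.6 CPM in scrambled libraries, and fell 1.27-fold (edgeR adjusted p = 0.025). ADAM12, a metalloprotease, stood at 19.9, 18.0 and 19.8 CPM, against 25.1 and 26.6 CPM, and fell 1.34-fold (adjusted p = 0.0105). Both were also called with GC correction (adjusted p = 0.0059 for THBS1 and 0.0041 for ADAM12), but not without H3F3A siRNA replicate 1 (0.224 and 0.11) or H3F3A siRNA replicate 2 (0.0566 and 0.082), and THBS1 not without H3F3A siRNA replicate 3 (0.072). COL1A1, a fibrillar collagen chain, fell 1.28-fold (adjusted p = 0.041), and TAGLN, a smooth muscle actin-binding protein, fell 1.44-fold (adjusted p = 0.0391). Neither was called after GC correction (0.232 for COL1A1 and 0.0913 for TAGLN, as adjusted p), without scrambled replicate 1 (0.514 and 0.482) or without any 1 of the H3F3A siRNA libraries (0.0788 to 0.224 for COL1A1 and 0.0622 to 0.166 for TAGLN). COL1A1 is also on the list of 7 fibroblast markers, whose summed level was 79.1, 85.3 and 77.5 CPM in H3F3A siRNA libraries and 103 and 94.4 CPM in scrambled libraries. Of that list 4 were tested. COL1A1 and PDGFRB were called lower and PDGFRA higher, against 2.69% and 0.504% of all genes. PDGFRB and PDGFRA were not called with GC correction either (edgeR adjusted p = 0.0587 and 0.105). PDGFRB was called in 10 and PDGFRA in 4 of 14 alternatives. The fibroblast markers DCN, LUM and THY1 were at most 0.345 CPM in either group mean. The part of that list in the fall of COL1A1 was not tested.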

How the data were processed

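Per the labels' protocols, RNA from Rh41 cells was captured on poly-T beads, fragmented, primed with random hexamers and made into NEBNext Ultra libraries, a kit that does not mark strand. The authors deposited whole-number counts per gene, in tables laid out as STAR writes them; the submitters' processing notes name STAR 2.5, HTSeq 0.6.1, DESeq2 and hg19 without roles. The unstranded counts were used, so reads of genes that overlap on opposite strands cannot be told apart. The summary lines (4.84% to 5.48% unmapped, 6.28% to 6.42% multimapping, 9.17% to 10.2% without a feature, 4.45% to 4.56% ambiguous) were left out of library sizes.

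The test was that of edgeR 4.0.16 under R 4.3.3: filterByExpr on group (minimum count 10, minimum total 15), TMM, robust quasi-likelihood fit of all 5 libraries without covariates, Benjamini-Hochberg adjustment over 15859 genes, called under 0.05. The biological coefficient of variation was 6.53%. Each standard error is the log2 fold change over the root of its F value. GC content is that of the longest GENCODE 29 transcript (all 51 members and 14347 tested genes matched by symbol); each library's trend over 20 GC classes was removed through offsets. Alternatives were DESeq2 1.42.0, upper-quartile scaling, no filter, a replicate block, GC correction, copies added, a fit that is not robust, and each library left out, where a lone scrambled library is assumed to vary like the other group.

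The members and lists were chosen with earlier results of these data known. Members given library by library are the called ones and the 3 with the highest mean CPM in each role group; those named for an unadjusted p under 0.05 were added after their values were seen. Beside the RefSeq promoter regions no coordinates are given, since the files' build is hg19 in the notes and the annotation at hand is GRCh38.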

Additional observations from a re-analysis of the deposited data

How the results depend on the processing

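H3F3A kept its call in all 14 alternatives (log2 fold change -5.06 to -4.82). Counts of calls moved more. Over all genes, 427 lower and 80 higher calls became 323 and 116 with upper-quartile scaling, 639 and 153 without the low-count filter, 209 and 78 with GC correction, 59 and 18 with GC correction and no scrambled replicate 1, and 784 and 420 with GC correction and a replicate block. Leaving out 1 library gave 9 to 1737 lower and 6 to 744 higher calls, the most without scrambled replicate 3 and the fewest without H3F3A siRNA replicate 1. Among members, 3 lower and 1 higher became 3 and 2 with DESeq2, 2 and 2 with upper-quartile scaling, 5 and 2 without the filter, 1 and 2 with GC correction, 1 and 1 with GC correction and no scrambled replicate 1, and 6 and 4 with GC correction and a replicate block; leaving out 1 library gave 1 to 9 lower and 0 to 5 higher. Among other pathway genes, 5 lower and 0 higher became 2 and 0 with GC correction and no scrambled replicate 1, and 14 and 1 with GC correction and a replicate block; leaving out 1 library gave 0 to 11 lower and 0 to 3 higher.

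Of 490 values for 35 named genes, 413 kept direction and side of the threshold, 39 lost and 20 gained the call, and 18 changed sign. Log2 fold changes of SMAD4 were -0.031 with GC correction, -0.050 with GC correction and no scrambled replicate 1, and -0.014 with GC correction and a replicate block. FSTL3 was at 0.098, 0.11 and 0.15 in the same order, the last called (adjusted p = 0.0356), and NOG at 0.053 and 0.025 in the last pair. FSTL3 was called in 2 of all 14 alternatives, where its log2 fold changes ran from -0.27 to 0.15. With GC correction and no scrambled replicate 1, SMAD5 was at -0.058, SKIL at -0.020 and ID1 at 0.019. Leaving out 1 library gave -0.16 to 0.031 for TGFBR1, -0.028 to 0.11 for SMAD4, -0.029 to 0.35 for SMAD5, -0.27 to 0.017 for NOG, -0.27 to 0.024 for FSTL3 and -0.035 to 0.33 for LTBP4. The cause was not tested.

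Only replicate numbers 1 and 3 occur in both groups, and the labels do not say that they mark shared cultures. For lack of such a label the numbers were not taken as pairs. Deviations from the group means correlated at 0.112 for number 1 and 0.0487 for number 3. They correlated at 0.068 for H3F3A siRNA replicate 2 with scrambled replicate 3. The deviations of the 2 scrambled libraries are exact opposites, so these correlations cannot decide pairing. A replicate block alone gave 476 lower and 98 higher calls over all genes, 4 and 1 among members, with LTBP3 added, and 5 and 0 among other pathway genes. Depth limits BMPR1B, INHBB, BMP6 and INHA, which had at most 21 counts in any library.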
